A study of Mus musculus with 6 samples.

Results

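The 9 complement genes C1qa, C1qb, C1qc, C1ra, C1s1, C4b, C3, C7 and Serping1 were read by symbol from the 31055 features of a single cell RNA sequencing (scRNAseq) dataset of the mouse aortic root and ascending aorta, and all 9 were found, each in a single entry. Their unique molecular identifier (UMI) counts were described by cell class and by fibroblast subtype within each of 6 libraries. The dataset addressed Loeys-Dietz syndrome (LDS), an inherited aneurysm disorder, in 16-week-old mice, with 4 control samples (Tgfbr1+/+) and 2 LDS samples (Tgfbr1M318R/+, a heterozygous missense change in a TGF-β receptor). Of the 4 control samples, 2 also carried Wnt2CRE and the EGFP-L10a reporter and are described as CNC-traced, whereas no such allele is labelled for the other 2 or for the LDS samples. Per the protocols, all mice were female, the tissue was digested with collagenase and elastase, and DNA-stained, propidium iodide-negative cells were sorted before capture.

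The deposited matrix marks the libraries only by a barcode suffix from 1 to 6 that was not paired with a mouse in the sources used here. No library was therefore assigned to a genotype, control and LDS were not compared, and every value is given per library or as a median with its range over libraries. No p-value was calculated, because the libraries are not labelled replicates of any 1 group.

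Complement is a cascade of plasma and tissue proteins. In its classical pathway, C1q, assembled from the A, B and C chains encoded by C1qa, C1qb and C1qc, binds a surface and activates the serine proteases C1r and C1s, which cleave C4 and C2 to form an enzyme that cleaves C3. Opsonization, chemotaxis and, through C5 to C9, a membrane pore follow, while the serine protease inhibitor encoded by Serping1 (C1 inhibitor) inactivates C1r and C1s. The liver is the main source of most components in plasma, whereas C1q is produced largely by macrophages and related myeloid cells, and fibroblasts are known to secrete several of the other components.

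The C1q genes are neighbours on the minus strand of chromosome 4 of the mm10 build, with C1qb at chr4:136880129-136886187, C1qc at chr4:136889804-136893065 and C1qa at chr4:136895917-136898803. C1ra lies at chr6:124512405-124523443 on the plus strand, next to C1s1 at chr6:124530345-124542359 on the minus strand. C4b (chr17:34728380-34743882) and C3 (chr17:57203970-57228136) share a chromosome, C7 is at chr15:4988762-5063740 and Serping1 at chr2:84765387-84775444, all on the minus strand and all protein coding. The RefSeq promoter table (GRCm38.p6, the assembly of mm10) held an entry for 6 of the 9 members, with none for C1qa, C4b or Serping1. The bases upstream of all annotated exons are shown for 2 macrophage members and 2 fibroblast members. Each is from the minus strand, 5′ to 3′, with the right end nearest the gene. The C1qc and C3 windows adjoin the gene span given above, whereas those of C1qb and C7 end short of it. Capitals mark a searched motif.
C1qb: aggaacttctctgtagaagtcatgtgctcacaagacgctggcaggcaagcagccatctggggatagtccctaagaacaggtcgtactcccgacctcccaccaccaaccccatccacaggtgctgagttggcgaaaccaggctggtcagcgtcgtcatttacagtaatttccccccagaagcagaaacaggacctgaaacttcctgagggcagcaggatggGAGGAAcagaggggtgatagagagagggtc
C1qc: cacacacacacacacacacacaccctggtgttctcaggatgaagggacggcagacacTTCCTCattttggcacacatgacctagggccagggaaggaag
C3: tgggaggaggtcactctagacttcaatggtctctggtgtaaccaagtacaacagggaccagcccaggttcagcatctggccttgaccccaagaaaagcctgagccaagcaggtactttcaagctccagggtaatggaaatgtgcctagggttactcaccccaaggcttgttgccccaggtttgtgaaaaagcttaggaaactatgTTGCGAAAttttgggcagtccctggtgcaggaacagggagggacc
C7: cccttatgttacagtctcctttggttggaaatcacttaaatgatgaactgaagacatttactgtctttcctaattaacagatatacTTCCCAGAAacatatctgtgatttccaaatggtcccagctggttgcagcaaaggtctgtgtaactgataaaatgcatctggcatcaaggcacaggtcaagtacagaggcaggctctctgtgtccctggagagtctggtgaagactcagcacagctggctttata
These are chr4:136886201-136886450 for C1qb, chr4:136893066-136893164 for C1qc, chr17:57228137-57228386 for C3 and chr15:5063774-5064023 for C7. Both strands were searched for 4 motifs. The PU.1 core GAGGAA, named for a myeloid transcription factor, was present in both C1q windows, 30 bases from the right end of the C1qb window and 42 bases from that of C1qc, where it lies on the opposite strand and reads TTCCTC. It occurs in 23.3% of all 32851 promoters over a window of 250 bases and in 9.91% over the 99 bases available for C1qc. The C/EBP motif TTGCNNAA was present in the C3 window 45 bases from its right end, and in 9.56% of all promoters. It was also present in a C1s1 window of 250 bases that is not shown, 242 bases from its right end. A shorter C1s1 window of 212 bases, also not shown, held none of the searched motifs. The gamma-activated motif TTCNNNGAA was present in the C7 window 164 bases from its right end, and in 7.02% of all promoters. The kappaB motif was in none of these 4 windows, and a match of letters is a description and not a binding site.

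Of 30716 deposited barcodes, 24972 passed the filter on genes, UMIs and mitochondrial share, with 1863 to 6395 cells per library. The passing cells held 18218282 to 38105145 UMIs per library, and the median cell of a library held 5572 to 9838 UMIs. Libraries 1, 3, 4 and 5, and separately libraries 2 and 6, shared barcode sequences: the 7 pairs within these sets had 244 to 1101 in common, against 2 to 8 in the other 8 pairs. Among passing cells a pair shared 0 to 13 sequences, and leaving out the 152 cells concerned moved none of the 9 ratios between fibroblast and macrophage described next by more than its spread over libraries.

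Clustering without the complement genes and naming from marker lists gave 5 cell classes. Fibroblast-like cells, with all 8 fibroblast markers detected and a summed marker level of 26879 to 31577 CPM (counts of a gene per 1000000 UMIs of the class and library), numbered 13477 or 54.0% of all cells. Vascular smooth muscle cell-like (VSMC-like) cells numbered 10383, endothelial-like cells 566 and other leukocyte-like cells 163. All 8 fibroblast markers were also detected in VSMC-like and endothelial-like cells, where they summed to 1546 to 3799 and 1037 to 6516 CPM. Macrophage-like cells numbered 349 (29, 34, 90, 104, 42 and 50 in libraries 1 to 6), and their 10 macrophage markers summed to 9325 to 17273 CPM against 14.5 to 26.2 CPM in fibroblast-like cells. The macrophage markers reached 135 to 3456 CPM in other leukocyte-like cells, which are a mixture of several small clusters. A further 34 leukocyte cells, of which 55.9% were marked as doublets, were left outside the classes after their values were seen.

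The 9 genes fell into 2 sets by source. The transcripts of the 3 C1q chains came from macrophage-like cells, which held 94.0% of all C1qa UMIs, 94.3% of C1qb and 94.0% of C1qc while making up 1.40% of cells. Fibroblast-like cells held 97.9% of C3 UMIs, 98.9% of C7, 95.3% of C4b, 91.0% of Serping1, 86.8% of C1ra and 82.9% of C1s1. The C1 complex was therefore split between classes at the transcript level, with its recognition chains in macrophage-like cells and its proteases and their inhibitor in fibroblast-like cells.

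**Figure D1:**
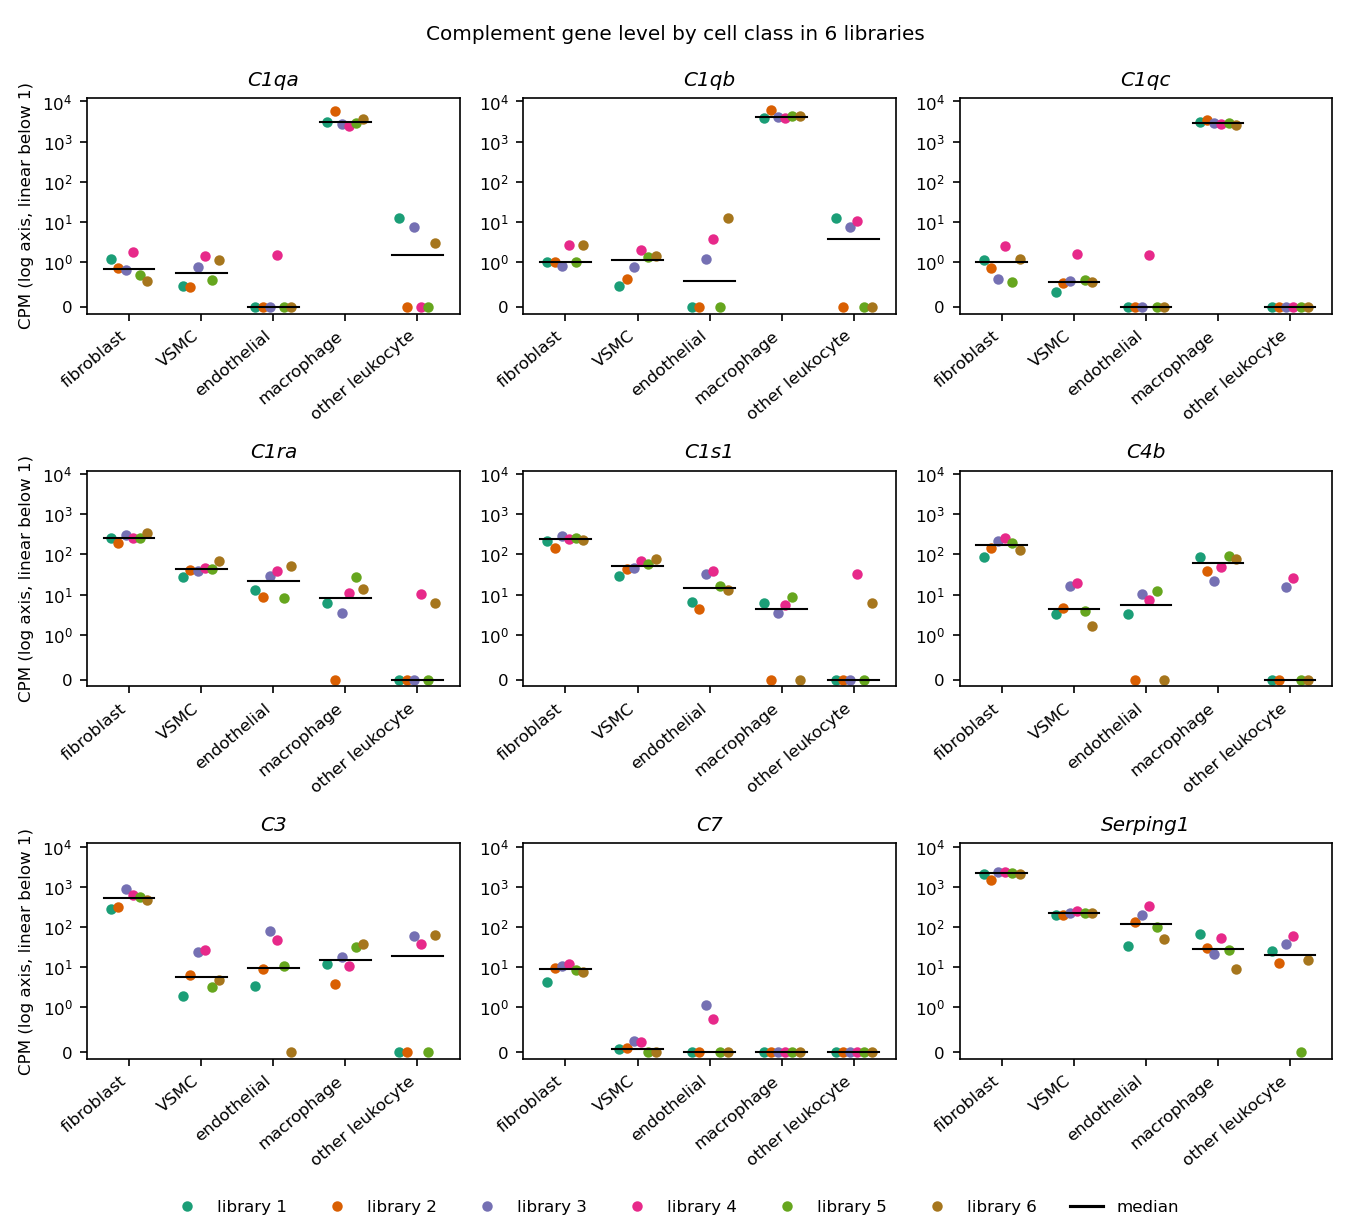
Level of the 9 complement genes in 5 cell classes, in CPM on a log axis, with 1 point for each of the 6 libraries and a bar at the median. The C1q chains sit near or above 2500 CPM in macrophage-like cells and near 1 CPM in fibroblast-like and VSMC-like cells, whereas the other genes are highest in fibroblast-like cells.

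C1qa was at 3148, 5950, 2723, 2459, 2884 and 3631 CPM in the macrophage-like cells of libraries 1 to 6. C1qb was at 3936, 6054, 4104, 3800, 4250 and 4347 CPM, and C1qc at 3117, 3512, 2838, 2791, 2871 and 2552 CPM. Library 2 was highest for all 3 chains, and the ranges of macrophage-like and fibroblast-like cells did not overlap. In fibroblast-like cells the medians were 0.849 CPM for C1qa, 1.02 for C1qb and 1.00 for C1qc, and in VSMC-like cells 0.752, 1.12 and 0.568 CPM, so these 2 classes overlapped.

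The log2 ratio of fibroblast-like over macrophage-like cells was computed in each library with a prior of 0.5 UMI, and a gene was called when it passed 10 CPM and differed at least 2-fold in the same direction in every library with 20 or more cells on both sides. The C1q chains were the 3 members called lower in fibroblast-like cells, at median log2 ratios of -11.73 for C1qa (-12.63 to -10.41 over 6 libraries), -11.84 for C1qb and -11.59 for C1qc. Of all 9185 genes tested in this comparison, 9.44% were called lower. In 3 libraries with enough cells on both sides, the same 3 chains were also called higher in macrophage-like than in other leukocyte-like cells, a call made for 6.28% of genes. C3 was lower in macrophage-like than in other leukocyte-like cells in 3 of 3 libraries, at -1.67, but was not called, and 5.33% of genes were called lower there.

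After each cell was thinned to 3000 UMIs, 96.7% of macrophage-like cells had a C1qa UMI (exact 95% interval 94.0 to 98.4; 97.4% before thinning). The shares for C1qb and C1qc were 98.3% and 96.0%. All 3 chains were found together in 286 of 301 thinned macrophage-like cells, or 95.0%. The chains were found together in 2 of 12255 fibroblast-like cells and in 0 of 9821 VSMC-like cells, of which a count of 0 concerns detection at this depth only.

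C1qa UMIs were found in 0.318% of thinned fibroblast-like cells (0.226 to 0.435) and in 0.234% of VSMC-like cells (0.149 to 0.351), whose median depths before thinning were 6114 and 7205 UMIs. The intervals overlapped, no C1q expression was read from shares of this size, and the part of free RNA in them was not tested. The chain proportions were 31.3% C1qa, 41.2% C1qb and 27.5% C1qc of 23019 UMIs in macrophage-like cells, 27.8%, 40.5% and 31.7% of 353 UMIs in fibroblast-like cells, and 30.2%, 43.3% and 26.5% of 215 UMIs in VSMC-like cells. They differed between libraries, with 13.2%, 60.5% and 26.3% of 38 UMIs in the fibroblast-like cells of library 6. Intervals on shares cover counting error only, since cells of a library are not independent samples.

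Macrophage-like cells fell into 3 clusters, called here by their leading genes: Arg1/F10/Lyz1 with 168 cells, Cd209g/Cd209f/Ednrb with 118 and Cox6a2/Siglech/Plac8 with 63. The Cd209g cluster also had Lyve1 and Folr2 among its leading genes, both known from tissue-resident macrophages. In the Cox6a2 cluster Cx3cr1, a chemokine receptor of monocytes and macrophages, came after Siglech, Plac8, Klra2, Fcgr4 and Sh2d1b1. Of the 10 macrophage markers, 7 led the Cox6a2 cluster, against 10 in each of the other clusters. Their mean log2 ratio to the median leukocyte cluster was 1.63 there, 2.22 in the Arg1 cluster and 3.07 in the Cd209g cluster. The macrophage name was thus weakest for the Cox6a2 cluster. All 3 clusters contained the C1q chains. Pooled C1qa was at 2310 CPM in the Arg1 cluster, 4030 in the Cd209g cluster and 4574 in the Cox6a2 cluster, against 3591, 4952 and 5182 CPM for C1qb and 2329, 3749 and 2966 CPM for C1qc. The pooled values depend on the libraries, since libraries 2 and 6 each gave 21 of the 63 Cox6a2 cells. The clusters were found without integration over libraries, and the part of library differences in them was not tested. Within libraries, C1qa was higher in the Cd209g than in the Cox6a2 cluster in libraries 1, 2 and 6 and lower in libraries 3 and 4. C1qc was higher in the Cd209g cluster in all 5 of these libraries, and library 5 had 1 Cox6a2 cell.

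The ratio of C1qa to C1qc UMIs in macrophage-like cells was 1.01, 1.69, 0.960, 0.881, 1.00 and 1.42 in libraries 1 to 6. Libraries 2 and 6 stood above the other 4. In the Arg1 cluster the ratios were 0.993, 1.64, 0.944, 0.866, 0.972 and 1.40, and in the Cd209g cluster 0.942, 1.59, 0.958, 0.847, 1.02 and 1.39, with libraries 2 and 6 again highest in both. In the Cox6a2 cluster they were 1.14, 1.75, 1.28, 1.30 and 1.46 in libraries 1, 2, 3, 4 and 6, with 1 cell in library 5. Libraries 2 and 6 are also the pair that shared barcodes and had the deepest cells, with medians of 9838 and 9615 UMIs, and the part of depth or preparation in this ratio was not tested.

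C4b had the highest macrophage-like level of the 6 members that came mainly from fibroblast-like cells. It encodes complement C4, the substrate of C1s, and was at 85.7, 147, 212, 260, 193 and 127 CPM in the fibroblast-like cells of libraries 1 to 6, against 85.6, 38.3, 21.5, 48.5, 89.6 and 77.3 CPM in macrophage-like cells. The fibroblast-like level was higher in 6 of 6 libraries, but the ranges overlapped, library 1 had nearly equal levels, and the median log2 ratio of 1.52 (0.00 to 3.30) was not called. Within libraries 1, 3, 4 and 5 the median was 1.76, and within libraries 2 and 6 it was 1.33.

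The macrophage-like C4b UMIs lay mostly in the Cd209g cluster. C4b was pooled at 164 CPM there (106 UMIs), against 7.17 CPM in the Arg1 cluster (8 UMIs) and 6.81 CPM in the Cox6a2 cluster (3 UMIs). In the Cd209g cluster 44 of 118 cells had a C4b UMI, or 37.3%, against 6 of 168 (3.57%) and 3 of 63 (4.76%) in the other clusters. By library the Cd209g cluster was at 388, 163, 78.3, 113, 155 and 311 CPM, above every value of the other clusters, which ranged from 0 to 27.2 CPM. C3 was at 23.3 CPM in the Arg1 cluster, 23.2 in the Cd209g cluster and 4.54 in the Cox6a2 cluster, and Serping1 at 19.7, 58.8 and 25.0 CPM. In the same order C1ra was at 7.17, 18.6 and 2.27 CPM and C1s1 at 2.69, 6.19 and 2.27 CPM. Doublet-marked cells made up 2.38%, 5.93% and 0% of these clusters. The part of doublets or free RNA in the C4b level was not tested.

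**Figure D2:**
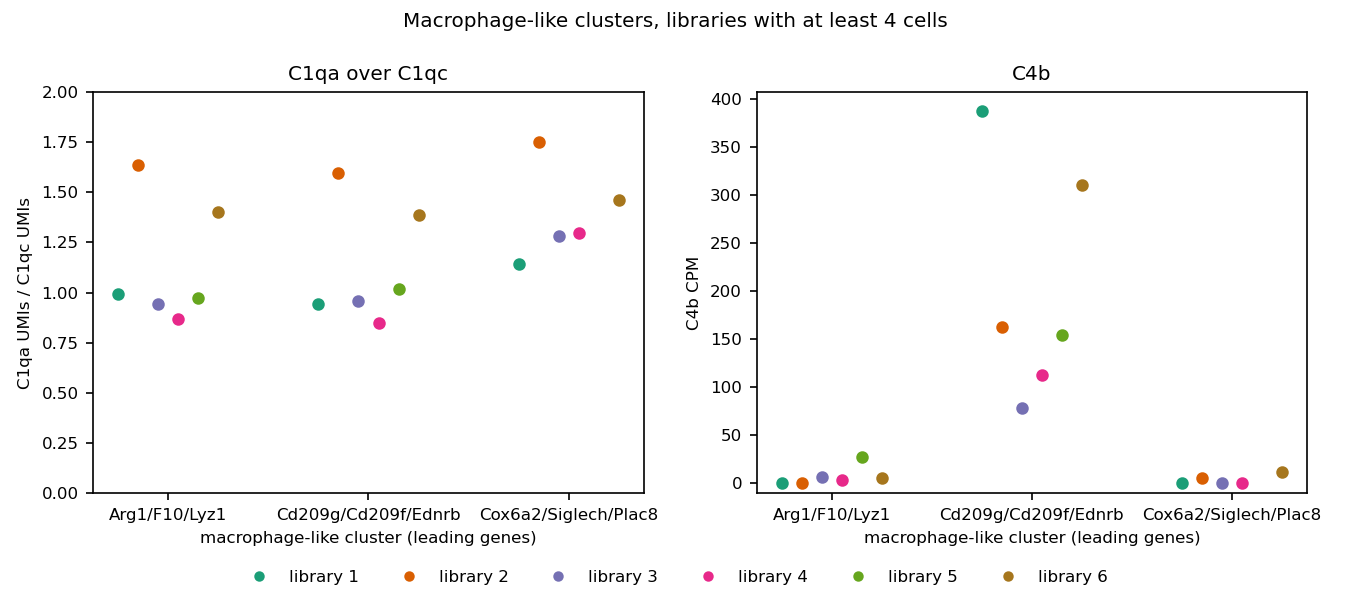
Ratio of C1qa to C1qc UMIs, and C4b in CPM, in the 3 clusters of macrophage-like cells. Each point is 1 library that had at least 4 cells in the cluster. Libraries 2 and 6 have the highest ratios in every cluster, while C4b is at 78.3 to 388 CPM in the Cd209g cluster and at or under 27.2 CPM in the others.

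Among the members with their highest level in fibroblast-like cells, C1ra, C1s1, C3 and Serping1 were called higher in fibroblast-like than in macrophage-like cells, as were 15.3% of the genes tested. C1ra, encoding C1r, was at 256, 189, 299, 260, 255 and 337 CPM in fibroblast-like cells and at 0 to 26.9 CPM in macrophage-like cells, with 21 UMIs in all of the latter. C1s1, encoding C1s, was at 214, 141, 293, 245, 262 and 227 CPM against 0 to 8.96 CPM, with 8 UMIs in macrophage-like cells. Neither gene overlapped between the 2 classes. The median log2 ratios were 4.99 for C1ra and 5.92 for C1s1, where macrophage-like cells of library 2 had no UMI of either gene and those of library 6 none of C1s1, so that these ratios depend on the prior.

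C3, the central component of the cascade, was at 288, 315, 897, 637, 569 and 471 CPM in fibroblast-like cells. In macrophage-like cells it was at 12.2, 3.83, 17.9, 10.8, 31.3 and 38.7 CPM, and the median log2 ratio was 5.09 (3.60 to 6.34). The lowest fibroblast-like library lay above the highest macrophage-like one.

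Serping1 was the most abundant member in fibroblast-like cells, at 2125, 1463, 2387, 2312, 2229 and 2024 CPM. Its macrophage-like level was 9.10 to 67.2 CPM and the median log2 ratio 5.97 (4.98 to 7.78). After thinning, 91.7% of fibroblast-like cells had a Serping1 UMI (91.2 to 92.2), against 47.9% for C1ra, 42.5% for C1s1, 39.3% for C3 and 20.6% for C4b. C3 thus had a higher level than C1ra or C1s1 but was found in fewer cells.

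C7, a component of the terminal pore, was the least abundant member, at 4.38, 9.80, 10.6, 11.8, 8.42 and 7.69 CPM in fibroblast-like cells. Its median of 9.11 CPM fell short of the 10 CPM needed for a call. No C7 UMI was found in 349 macrophage-like or 163 other leukocyte-like cells. Pooled C7 in fibroblast-like cells was at least 6.98-fold higher than in macrophage-like cells and at least 2.65-fold higher than in other leukocyte-like cells, taking 3 counts per class as the limit that a count of 0 allows. After thinning, 2.73% of fibroblast-like cells had a C7 UMI (2.45 to 3.04).

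The same 5 genes, C1ra, C1s1, C4b, C3 and Serping1, were called higher in fibroblast-like than in VSMC-like cells (10.2% of genes called) and than in endothelial-like cells (7.14% of genes called, in 5 libraries with enough cells). The median log2 ratios over VSMC-like cells were 2.52 for C1ra, 2.03 for C1s1, 3.25 for Serping1, 4.85 for C4b and 6.11 for C3. Over endothelial-like cells they were 4.25, 3.97, 3.63, 4.64 and 5.15 in the same order. The C1 proteases therefore stood out least from smooth muscle, and C3 most.

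VSMC-like cells had C1ra at 27.7 to 68.7 CPM and C1s1 at 29.3 to 76.2 CPM, which was a median of 17.4% and 24.7% of the fibroblast-like level of the same library. Serping1 was at 195 to 256 CPM, or 10.5%. For C4b and C3 the medians were 3.46% and 1.51%. Fibroblast markers measured the same way were at 1.92% (Dpt), 2.18% (Dcn), 3.00% (Fbln1), 3.16% (Pdgfra) and 4.16% (Lum) of their fibroblast-like level. The remaining markers Col1a1, Col1a2 and Mfap5 reached 24.9%, 29.5% and 33.9%, so the markers did not give a single level to compare with.

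C3 in VSMC-like cells was at 1.96, 6.28, 24.4, 26.2, 3.22 and 4.85 CPM, highest in libraries 3 and 4. In that class C4b and the markers Lum, Dpt, Pdgfra, Dcn, Col1a1 and Fbln1 were also highest in these libraries. The other markers were not, with Col1a2 highest in libraries 1 and 2 (929 and 848 CPM) and Mfap5 in libraries 1 and 4 (481 and 477 CPM). With doublet-marked cells removed, C1ra, C1s1 and Serping1 in VSMC-like cells were at 15.7%, 22.4% and 9.26% of the fibroblast-like level, and C3 at 1.03%. The part of free RNA from fibroblasts in these levels was not tested.

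In the order of levels, C1ra, C1s1, C4b, C3, C7 and Serping1 had non-overlapping ranges between fibroblast-like cells and the class next in order, apart from C4b, whose next class was macrophage-like. Among the lower classes the ranges overlapped for C3, which had medians of 18.6 CPM in other leukocyte-like, 15.1 in macrophage-like, 9.62 in endothelial-like and 5.56 in VSMC-like cells. For Serping1 the range of VSMC-like cells (195 to 256 CPM) lay within that of endothelial-like cells (33.4 to 330 CPM).

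Fibroblast-like cells were clustered again without the complement genes into 9 subtypes of at least 2% of cells, each called by the 3 genes with the largest fold over the other fibroblast-like cells. The subtypes were Pex5l/Cpxm2/Dio2 (4011 cells), Pla1a/Cadm3/Adgrd1 (3361), Ccl7/Ccl2/Il6 (1478, led by chemokine and cytokine genes), Tmem178/Cd74/Prss35 (1179, with the class II genes H2-Aa and Cd74 among its leading genes), Spp1/Cytl1/Cilp2 (1128), Igfbp3/Ptn/Gucy1a1 (871), Mmp3/Ntrk2/Cpz (661), Mylk4/Myh11/Kcnmb1 (411) and Tfap2b/Mia/Dlx6 (323). In the Mylk4 subtype 50.4% of cells were marked as doublets, and library 5 had 7 cells of the Tfap2b subtype. A further 54 cells led by Kcna1, Gfra3 and Sostdc1 fell under the size limit and were not described. Median shares of UMIs from dissociation stress genes ranged from 1.64% in the Pex5l subtype to 2.62% in the Ccl7 subtype.

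Of the members that passed 10 CPM in every comparison of subtypes, C3 differed by the largest fold between subtype medians. In the Ccl7 subtype it was at 624, 436, 1909, 1017, 1239 and 1467 CPM in libraries 1 to 6, and in the Pla1a subtype at 804, 664, 1664, 1084, 930 and 1252 CPM. Their medians of 1128 and 1007 CPM did not differ beyond their spread. At the other end, C3 was at 18.5 to 269 CPM in the Spp1 subtype, 2.01 to 237 CPM in the Tmem178 subtype and 0 to 104 CPM in the Tfap2b subtype, with no overlap between these 3 and the 2 highest.

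After thinning, a C3 UMI was found in 66.7% of Ccl7 cells (64.1 to 69.2) and 57.5% of Pla1a cells (55.7 to 59.4), against 15.9% of Tmem178, 15.4% of Spp1 and 10.4% of Tfap2b cells. In the Mmp3 subtype 45.9% of cells had a C3 UMI at a median of 389 CPM, against 33.6% at 454 CPM in the Igfbp3 subtype, so shares and levels did not have the same order throughout. C3 was called higher in the Pla1a subtype than in all other fibroblast-like cells, at a median log2 ratio of 1.67 (1.07 to 2.05), and was the only member so called where 1.09% of genes were. In the Ccl7 subtype the ratio was 1.23 (0.51 to 1.84) with 6 of 6 libraries above 0, and no member was called there, against 0.375% of genes. The call for C3 in the Pla1a subtype was lost when cells were thinned to 3000 UMIs, although its median ratio was then 1.73, and when the Mylk4 subtype and the cells with glia markers were left out (1.65).

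**Figure D3:**
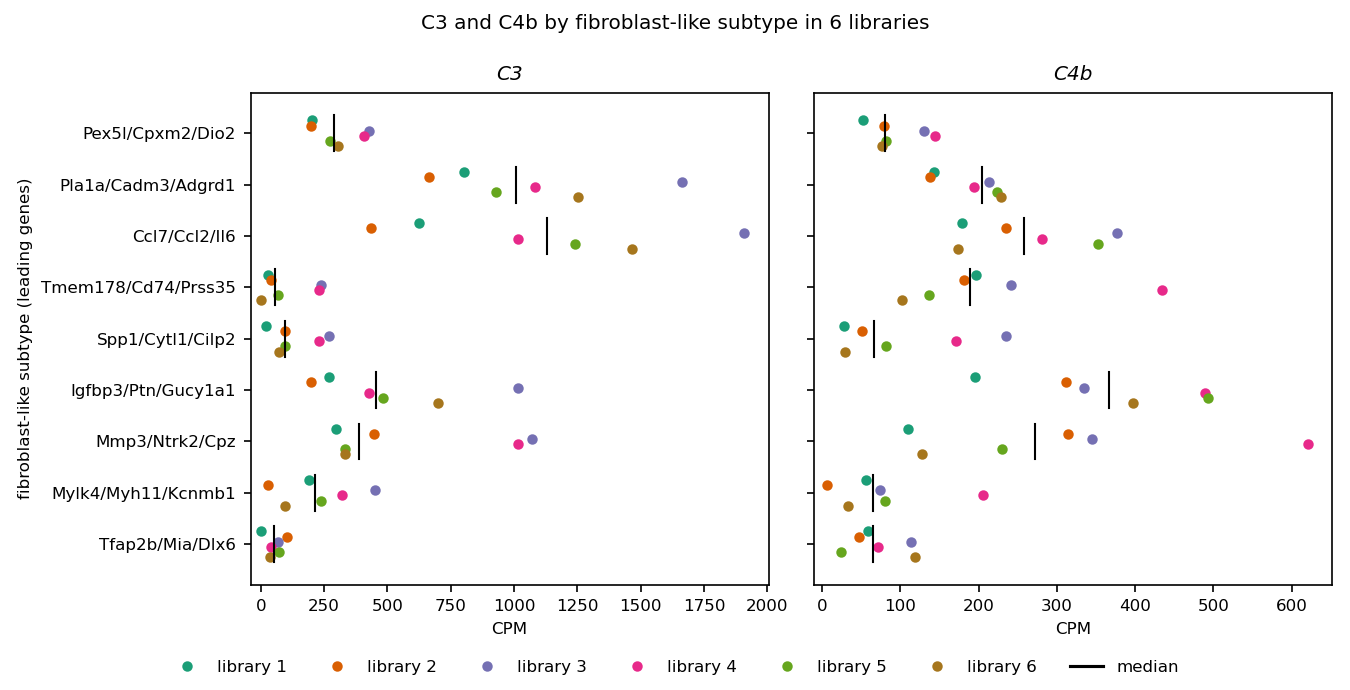
C3 and C4b in 9 fibroblast subtypes, in CPM on a linear axis, with 1 point per library and a bar at the median. C3 is highest in the Ccl7 and Pla1a subtypes and lowest in the Spp1, Tmem178 and Tfap2b subtypes, while C4b in the Tmem178 subtype (103 to 435 CPM) overlaps the subtypes with the highest levels.

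The Tmem178/Cd74/Prss35 subtype had the lowest levels of the C1 proteases and their inhibitor. C1ra was at 41.2, 43.7, 43.7, 57.4, 42.8 and 61.3 CPM there, below every library of the 8 other subtypes except library 2 of the doublet-rich Mylk4 subtype (59.8 CPM in 14 cells). C1s1 was at 22.9, 9.79, 19.1, 27.2, 19.2 and 32.2 CPM, below every library of every other subtype. Serping1 was at 591, 458, 544, 806, 552 and 338 CPM, where the next lowest subtype by median, Spp1, was at 906 to 1647 CPM. Single libraries of the Mylk4 and Tfap2b subtypes reached down to 751 and 645 CPM of Serping1.

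In this subtype 4 members were called lower than in all other fibroblast-like cells, against 2.86% of genes. The median log2 ratios were -3.60 for C1s1 (-4.12 to -2.97), -3.14 for C3 (-7.97 to -1.61), -2.62 for C1ra (-2.94 to -2.30) and -1.97 for Serping1 (-2.73 to -1.66). C4b was not lower: it was at 197, 181, 241, 435, 137 and 103 CPM, with a ratio of 0.29 (-0.52 to 1.24) above 0 in 4 of 6 libraries. After thinning 30.9% of the cells had a C4b UMI (28.2 to 33.7), next to 31.1% in the Igfbp3 subtype and 30.2% in the Ccl7 subtype. C1qa was at 0.376 to 4.58 CPM in this subtype, on 10 UMIs in all, and at 0 to 4.04 CPM in the other subtypes.

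The Spp1/Cytl1/Cilp2 subtype, led by the osteopontin gene Spp1, was the other subtype with several members lower. C1ra was at 124, 99.5, 155, 133, 78.0 and 156 CPM and C1s1 at 94.8, 61.6, 129, 107, 49.9 and 76.0 CPM. C1ra (-1.10), C1s1 (-1.31) and C3 (-2.29) were the 3 members called lower, against 0.627% of genes, and C1ra lay close to the 2-fold limit, with ratios from -1.83 up to that limit. C1ra did not overlap with the Tmem178 subtype, which was below it in 6 of 6 libraries. Serping1 had a ratio of -0.75 (-1.41 to -0.42) and C4b one of -1.50 (-2.19 to 0.16), neither of them called. In the Tfap2b/Mia/Dlx6 subtype C3 alone was called lower (-3.81, in 5 libraries with enough cells and with no UMI in library 1), as were 1.93% of genes, while C1ra had a ratio of 0.05 (-0.15 to 0.23). With thinned cells 1 member in place of 3 was called lower in the Spp1 subtype, and with doublet-marked cells removed 2 members in place of 1 were called lower in the Tfap2b subtype.

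**Figure D4:**
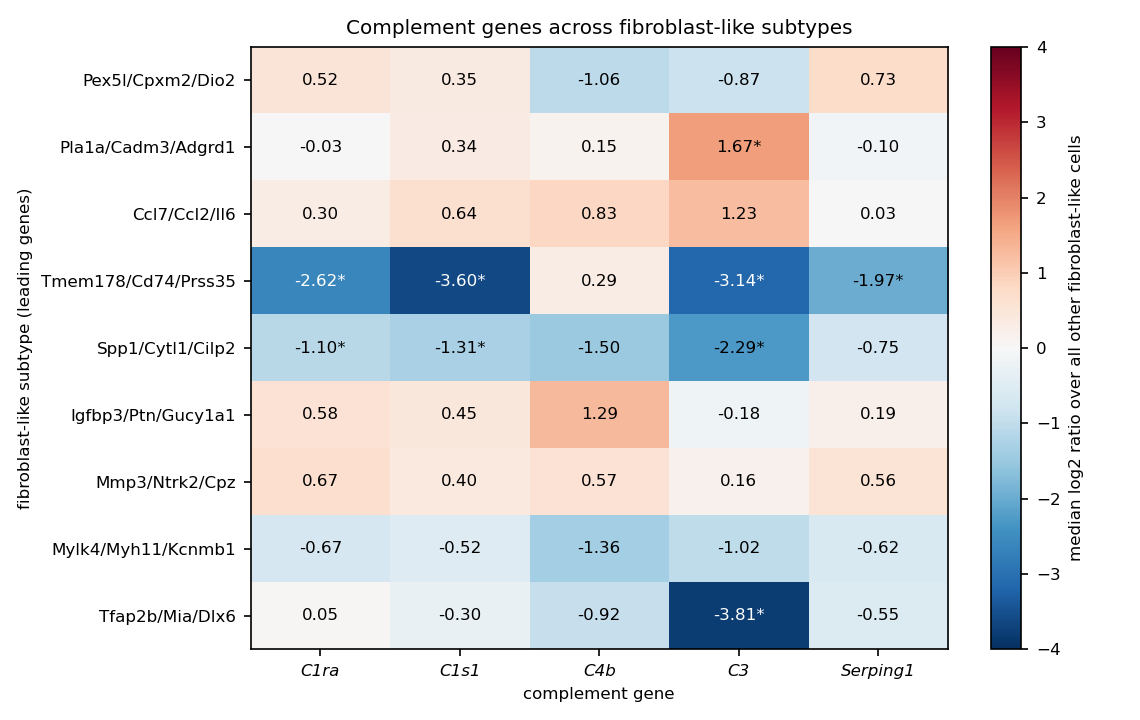
Median log2 ratio over libraries of C1ra, C1s1, C4b, C3 and Serping1 in each fibroblast subtype over all other fibroblast-like cells, where an asterisk marks a gene at least 2-fold higher or lower in every library with enough cells. The Tmem178 subtype has 4 asterisks, all for lower levels and none for C4b, and the Pla1a subtype has the only asterisk for a higher level, for C3.

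C4b had a different order of subtypes from C3. It was highest by median in the Igfbp3/Ptn/Gucy1a1 subtype, at 196, 312, 335, 490, 493 and 398 CPM, followed by the Mmp3 subtype (110 to 621 CPM) and the Ccl7 subtype (174 to 377 CPM), whose ranges overlapped. In the Pex5l subtype, the most numerous, C4b was at 52.2, 79.3, 130, 144, 82.0 and 77.2 CPM. The ratio over all other fibroblast-like cells was 1.29 (0.70 to 1.78) in the Igfbp3 subtype and -1.06 (-1.41 to -0.91) in the Pex5l subtype, each in the same direction in 6 of 6 libraries and each short of 2-fold in at least 1 library, so neither was called, against 0.391% of genes called higher in the Igfbp3 subtype and 1.64% called lower in the Pex5l subtype. In the doublet-rich Mylk4 subtype C4b (-1.36) and C3 (-1.02) were below the other cells in 5 of 5 libraries without a call, where 0.269% of genes were called lower.

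C1ra, C1s1 and Serping1 were more alike among the remaining subtypes. C1ra had its highest median in the Mmp3 subtype (418 CPM, 276 to 452), with Pex5l (379), Igfbp3 (349), Tfap2b (299), Ccl7 (274) and Pla1a (256) following, each overlapping the next. C1s1 ranged by median from 343 CPM in the Ccl7 subtype to 188 CPM in the Tfap2b subtype over the same 6 subtypes. Serping1 was at 3207 CPM in the Mmp3 subtype and 3076 CPM in the Pex5l subtype, where its ratio was 0.73 (0.46 to 0.99), higher in 6 of 6 libraries and not called.

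C7 had its highest levels in the same 2 subtypes as C3, with medians of 15.1 CPM in the Pla1a subtype (10.3 to 25.5), 13.8 CPM in the Ccl7 subtype (0 to 24.2) and 12.4 CPM in the Mmp3 subtype. In the Spp1 subtype it was at 0 to 6.98 CPM and in the Tfap2b subtype at 0 to 3.99 CPM, where 3 UMIs were found in 323 cells. Its ratio in the Pla1a subtype was 1.32 (0.50 to 2.08), above 0 in 6 of 6 libraries and not called.

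Between libraries, C3, C4b and C7 varied most among the 6 members that were highest in fibroblast-like cells. The highest library was 3.12 times the lowest for C3, 3.03 times for C4b and 2.69 times for C7, and library 1 was lowest for all 3. For C1s1, C1ra and Serping1 the values were 2.07, 1.78 and 1.63, and library 2 was lowest for all 3. On the log2 scale, the spread of C7 was 0.61 without library 1 against 1.43 with it, and that of C1s1 was 0.45 without library 2 against 1.05 with it. Among genes of a like level in the class, 4.81% of 416 were at least as spread as C3, 3.42% of 1346 as C4b, 12.5% of 922 as C1s1 and 50.4% of 115 as Serping1.

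The makeup of the fibroblast-like cells also differed between libraries, with the Tmem178 subtype at 1.56% of them in library 1 and 12.6% in library 2. When 7 subtypes were given equal weight in every library, the highest library was 3.18 times the lowest for C3, 2.58 times for C4b, 2.75 times for C7, 1.95 times for C1s1, 1.71 times for C1ra and 1.55 times for Serping1. In the library set 1, 3, 4 and 5, C3 was at 288 to 897 CPM and C4b at 85.7 to 260 CPM, and the values of libraries 2 and 6 lay inside both ranges. The differences between libraries cannot be told apart from genotype, mouse or preparation day.

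**Figure D5:**
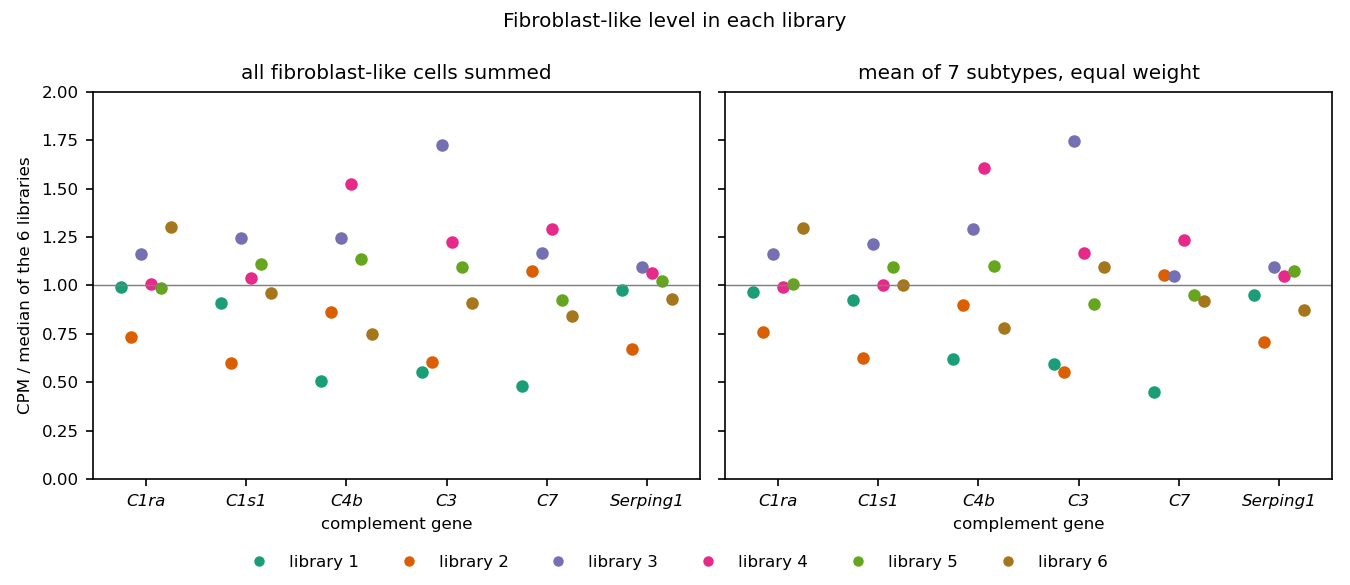
Level of C1ra, C1s1, C4b, C3, C7 and Serping1 in fibroblast-like cells, by library, divided by the median over the 6 libraries. All fibroblast-like cells are summed on the left, and 7 subtypes have equal weight on the right. In the summed cells C3, C4b and C7 are the most spread, with library 1 lowest.

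The wider pathway was read from lists of complement genes, of which 56 were in the files. C4a, the near-identical partner of C4b, was not among these 56. Whether reads from C4a were counted to C4b was not tested, so the C4b level is uncertain in that respect. At least 10 CPM in 1 or more classes was reached by 29 genes, 11 of them highest in macrophage-like cells, 10 in fibroblast-like, 5 in endothelial-like, 2 in other leukocyte-like and 1 in VSMC-like cells. By list, 5 of 8 genes of the C1 complex passed, 3 of 9 of the lectin pathway, 6 of 6 of C2, C3, C4b and the alternative pathway, 3 of 8 soluble and 3 of 8 membrane regulators, 9 of 10 receptors and 0 of 7 terminal components.

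Fibroblast-like cells had the highest medians of Colec12, a scavenger collectin (510 CPM), and of Cd55, the decay-accelerating factor (135 CPM). C2 and Cfb, the proteases of the C3-cleaving enzymes, were at 30.3 and 42.2 CPM. The receptors of the C3a and C5a fragments were macrophage genes, with C3ar1 at 296 CPM and C5ar1 at 665 CPM in macrophage-like cells and under 1 CPM in fibroblast-like cells. In macrophage-like cells Itgam and Itgb2, the chains of the receptor for cleaved C3, were at 153 and 185 CPM. Itgb2 had a higher median in other leukocyte-like cells, at 234 CPM. Cfp (properdin), which stabilizes the alternative enzyme, was at 222 CPM in macrophage-like cells. The regulators clusterin (Clu, 1301 CPM) and Cr1l (149 CPM) and the receptor-like Cd93 (392 CPM) were highest in endothelial-like cells, as was Cfd (factor D, 43.5 CPM), and Cd59a, an inhibitor of the pore, in VSMC-like cells (207 CPM).

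Among fibroblast subtypes, the regulator Clu was called higher in the Tmem178 subtype, at 860 to 7331 CPM and a median log2 ratio of 3.15 where 2.44% of genes were called higher. It was called lower in the Pex5l (-2.06) and Igfbp3 (-2.18) subtypes, in the latter with 0.83% of genes. Cd55 was called higher in the Pla1a subtype (1.90) and lower in the Pex5l (-1.29) and Tmem178 (-2.04) subtypes. The subtype with the least C1ra, C1s1 and Serping1 was thus the one with the highest Clu.

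Over 13 groups (4 classes other than fibroblast-like and 9 fibroblast subtypes, whose medians share the same 6 libraries), the correlation of log2(CPM + 1) was calculated between each member and 11118 genes as a description. The genes most like C1qa were C1qb (r = 0.992), C5ar1 and Fcrls (0.989), and those most like C1qb were C1qa, Lyz1 (0.989) and Mmp12 (0.983). For C1qc they were Mgl2 (0.992), Retnla (0.992) and Fcgr4 (0.991), all with their level in macrophage-like cells. Of the groups only macrophage-like cells had a high C1q level, so the r values of the C1q chains rest mainly on that group. They do not show which genes vary with C1q within macrophage-like cells. C1ra and C1s1 were most like each other (0.988), followed by Vkorc1 (0.985) and Ccdc102a (0.982) for C1ra and by Frmd6 (0.987) and Dact1 (0.974) for C1s1. Serping1 was nearest to Twist2 (0.992), Fgf7 (0.989) and 3632451O06Rik (0.989). C4b was nearest to Apoe (0.961), Klhl33 (0.959) and Isg20 (0.957), C3 to Bcat1 (0.956), Sept8 (0.955) and Gpx3 (0.949), and C7 to Mmp27 (0.944), C3 (0.937) and Lypd1 (0.937).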

How the data were processed

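The deposited matrix holds UMI counts per gene and cell for 6 samples. Per the labels and the study's methods, suspensions from each mouse were processed separately on several days with the 10x Genomics 3′ v3 kit, aligned to mm10 and aggregated by the authors with Cell Ranger 6, although the matrix header names version 4.0.0. Cells with over 1000 and under 5000 genes, over 1500 and under 25000 UMIs and under 20% mitochondrial UMIs were kept, 24972 of 30716 barcodes, close to the totals stated in the methods.

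Counts were normalized with SCTransform v2 on 3000 variable genes, integrated by reciprocal PCA over 30 components and clustered at resolution 0.25 with Seurat 5.3.0 in R 4.3.3. Leukocyte-like cells, few in each library, were clustered again on log-normalized counts without integration, at resolution 0.5. Complement genes, 24 for all cells and 15 for fibroblast-like cells, were left out of the clustering. Clusters were named when at least 3 markers of a list led them, and a leukocyte cluster with over 50% doublet-marked cells was left unnamed after its values were seen. Doublets were marked with scrublet in scanpy 1.11.5, by its call or, where that failed, by the top 5% of scores, and were kept except in an alternative.

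UMIs were summed per class and library, and 0.5 UMI, adjusted for total UMIs, was added on both sides of each ratio. Shares of cells were compared after thinning to 3000 UMIs with exact (Clopper-Pearson) 95% intervals. The scripts were tested on simulated data. The named genes are the 9 members, pathway genes of at least 50 CPM in a class, the 3 genes most like each member, and the 3 leading genes of each subtype. An item of the pathway lists is not reported here. The lower pathway genes C2, Cfb and Cfd were named after their values were seen. The members and lists were chosen with earlier results of these data known. Alternatives were doublet removal, thinning, per-cell means, a 10% mitochondrial limit, other priors, folds and levels, other clusterings, and leaving out each library.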

Additional observations from a re-analysis of the deposited data

Results flagged for a closer look

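In macrophage-like cells, C1qa at 5950 CPM and C1qb at 6054 CPM in library 2 each stood apart from the other 5 libraries by Dixon's criterion. The gap to the next library was 0.664 of the whole range for C1qa and 0.757 for C1qb, both above the critical value for 6 libraries. Of 9 genes examined in this way, each in the class where it was highest, these were the 2 that passed, and chance alone passes about 1 group in 20. Both values come from the same 34 cells of library 2, so the 2 passes are not independent. C1qc was also highest in library 2, at 3512 CPM with a gap of 0.411. Library 2 had 34 macrophage-like cells, 21 of them in the Cox6a2 cluster, 9 in the Cd209g cluster and 4 in the Arg1 cluster. Within each of these clusters C1qa was again highest in library 2, at 5549, 7527 and 5384 CPM. The part of depth or preparation in these values was not tested.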

How the results depend on the processing

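No called ratio changed sign under any alternative that gave a value. Of the 9 comparisons of fibroblast-like with macrophage-like cells, thinning to 3000 UMIs moved C1s1 to 9.49 and C7 to 5.83 on the log2 scale, and a prior of 2 UMIs moved C7 to 5.12, where C1s1 had 8 UMIs in macrophage-like cells and C7 had 0. C4b ranged from 1.11 to 1.94 when 1 library at a time was left out. The count of 1 member higher in the Pla1a subtype was 0 with thinned cells, 0 without the clusters of doublet-marked and glia-marker cells (an alternative chosen after seeing the data) and 0 at resolution 0.5. The count of 3 members lower in the Spp1 subtype was 1 with thinned cells, 1 with all genes kept in the clustering, 1 at resolution 0.1 and 1 at resolution 0.5. The count of 1 member lower in the Tfap2b subtype was 2 without doublets, 2 with the mean of each cell's CPM, 2 without shared barcodes and 2 without the clusters of doublet-marked and glia-marker cells (both chosen after seeing the data), 2 on log-normalized counts without integration, 2 at resolution 0.5 and 2 among cells below the median stress share. At 1.5-fold in place of 2-fold, 2 members were lower in the Pex5l subtype, 1 was higher in the Igfbp3 subtype and 1 was lower in the Mylk4 subtype, each from 0. The share of all genes called at 1.5-fold is not given, so these counts have no background to be read against. The causes were not tested.

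Leaving out 1 library at a time gave 1 to 2 members lower in the Tfap2b subtype, 0 to 1 lower in the Pex5l and Mylk4 subtypes and 0 to 1 higher in the Igfbp3 subtype. The log2 of the highest over the lowest library ranged from 0.61 to 1.43 for C7, where library 1 set the lower value, and, where library 2 set it, from 0.56 to 1.27 for C1qa, 0.19 to 0.67 for C1qb, 0.29 to 0.46 for C1qc, 0.40 to 0.83 for C1ra, 0.45 to 1.05 for C1s1 and 0.24 to 0.71 for Serping1. Alternative clusterings gave no value for subtypes without a matching cluster (Jaccard overlap under 0.5): Pla1a, Ccl7 and Tfap2b with all genes kept, Pla1a, Ccl7, Spp1, Igfbp3 and Mmp3 without integration, Ccl7, Igfbp3, Mmp3 and Tfap2b at resolution 0.1, and Pex5l at resolution 0.5. No paired analysis was possible because the libraries were not paired with samples and no result comes from a test. Depth limits C7 and the macrophage values of C1ra, C1s1 and C3, which rest on few UMIs.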

Other observations

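In the 34 leukocyte cells left outside the classes, of which 55.9% were marked as doublets and whose median depth was 11005.5 UMIs, C1qa, C1qb and C1qc were at 829, 949 and 675 CPM together with C1ra at 80.1 CPM and C1s1 at 94.4 CPM. In other leukocyte-like cells, C3 was highest in a cluster of 30 cells led by Gm5483, Stfa2l1 and Cyp4f18, all from library 6, at 161 CPM, which is a value from 1 library.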
